A study of Mus musculus with 8 samples.

Results

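The 55 genes described here are the mouse major histocompatibility complex (MHC) genes and their antigen processing partners. They are all 45 genes whose symbol starts with H2- plus 10 genes named singly (B2m, Tap1, Tap2, Tapbp, Psmb8, Psmb9, Psmb10, Cd74, Ciita and Nlrc5), out of 47643 genes in the macrophage table, and all 55 are also listed in the plasma cell table of 52458 genes. Their RNA was measured in macrophages and plasma cells of the bone marrow of wild-type B6 mice. Vk*MYC myeloma, a transplantable plasma cell tumour purified by CD138, was placed in the tibia, and its cells carry green fluorescent protein (GFP). Tumour-associated macrophages (TAM) came from the F4/80 high CD11b low gate. Those with GFP signal, labelled TAM in contact, are called contact TAM here (2 libraries), and those without it, labelled TAM not in contact, non-contact TAM (2 libraries). Macrophages of naive mice, which carried no tumour, were the control (2 libraries). A further 2 libraries are labelled as plasma cells, and the labels do not say which of them holds myeloma cells and which polyclonal plasma cells. No group received a treatment, contact was defined by the GFP signal of the sorted cell alone, and each TAM library is labelled with a mouse number, while the labels of the naive and plasma cell libraries name no animal. P-values therefore measure the spread between these libraries, which for naive macrophages may be technical.

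Class I molecules consist of a heavy chain and beta-2 microglobulin (B2m), and they show peptides made in the cytosol to CD8 T cells. The peptides are cut by the proteasome, carried into the endoplasmic reticulum by the transporter of Tap1 and Tap2, and loaded with the help of tapasin (Tapbp). Class II molecules consist of an alpha and a beta chain, are guided through the cell by the invariant chain (Cd74), and show peptides of ingested protein to CD4 T cells. Macrophages can carry both classes, interferon gamma is known to induce both, and the transactivators Nlrc5 and Ciita are known to drive class I and class II genes.

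By role the 55 genes comprise 30 class I genes (2 classical heavy chains, 27 nonclassical heavy chain genes and B2m), 7 genes of class I processing, 3 class I pseudogenes, 12 class II genes and 3 other genes that carry the H2- prefix. The class I pseudogenes were set apart by the -ps in their symbol. Among the 27, H2-K2 and H2-Q3 are also annotated as pseudogenes, and H2-Bl, H2-Q5 and H2-T10 as polymorphic pseudogenes. Chromosome 17 holds 50 of them, and 44 are annotated as protein coding. Of the 55 genes 40 passed the filter on low counts and were tested, namely 19 class I genes, 7 processing genes, 2 pseudogenes, 11 class II genes and 1 other gene. The 15 that did not pass are mainly nonclassical class I genes of the H2-M group, among them H2-M1, H2-M9 and H2-M11. They reached at most 0.966 CPM (counts scaled to a common library total) in any library, and H2-Pa and H2-Pb had 0 counts in all 8 libraries.

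Library totals ranged from 28887725 to 46873056 counts in the macrophages and were 81792139 and 38343783 in the plasma cells. A set of 7 macrophage marker genes summed to 4057 and 5952 CPM in contact TAM, 12403 and 9657 CPM in non-contact TAM and 14418 and 7341 CPM in naive macrophages, against 87.8 and 86.5 CPM in plasma cells. Its genes differed in order. Vcam1 had 260 and 153 CPM in contact TAM, against 5063 and 5805 CPM in non-contact TAM and 8636 and 4335 CPM in naive macrophages. Csf1r had 2396 and 4368 CPM, 3254 and 1389 CPM, and 1889 and 1120 CPM in the same order of groups. Mertk, Spic and Adgre1 were, like Vcam1, lowest in both libraries of contact TAM, while Csf1r, Cd68 and Fcgr1 were not. Replicates are given in the order 1 and 2 throughout, and for TAM these are the labels' mouse numbers. Replicate 2 of non-contact TAM stood apart, with 9.48% of its counts on immunoglobulin genes against 0.169% to 0.679% in the other 5 macrophage libraries. Replicate 2 of contact TAM was the macrophage library with high Y-linked RNA (Ddx3y at 88.4 CPM), while replicate 2 of non-contact TAM had 0.258 CPM of Ddx3y and 40.4 CPM of Xist, so the 2 libraries labelled mouse 2 do not hold RNA of the same animal. In bulk RNA, fewer cells of a type and less RNA per cell cannot be told apart.

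No member passed edgeR's quasi-likelihood test at a Benjamini-Hochberg adjusted p under 0.05 in any of the 3 comparisons. Of the 40 members 0 were called in contact TAM over non-contact TAM (0% of all 15522 genes tested), 0 in contact TAM over naive (0.219% of all genes) and 0 in non-contact TAM over naive (0%). At an unadjusted p under 0.05 there were 3 members in the first comparison (17.1% of all genes), 8 in the second (14.6%) and 10 in the third (15.2%). DESeq2, run as an alternative, called 1 member higher (3.28% of all genes) and 2 lower (7.15%) in contact TAM over non-contact TAM. It called 5 higher (3.06%) and 0 lower (4.86%) in contact TAM over naive, and 4 higher (4.42%) and 1 lower (3.74%) in non-contact TAM over naive. Without the filter on low counts edgeR itself called 2, 11 and 10 members in the same order, against 7.20%, 5.53% and 5.96% of all genes tested, and H2-Aa, H2-Ab1, H2-Eb1, H2-Q6, H2-Q7 and H2-T22 were among those higher in both comparisons with naive.

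Members lay above naive in TAM more often than genes at large. The log2 fold change was positive for 34 of 40 members in contact TAM over naive (50.2% of all genes), for 34 of 40 in non-contact TAM over naive (53.7%) and for 24 of 40 in contact TAM over non-contact TAM (49.9%). The first 2 comparisons share the naive libraries. All 4 TAM libraries lay above both naive libraries in CPM for 16 of the 40 members, against 8.21% of all genes. These were 11 class I genes (B2m, H2-D1, H2-K1, H2-M3, H2-M5, H2-Q2, H2-Q4, H2-Q6, H2-Q7, H2-T22 and H2-T23), 4 processing genes (Psmb8, Tap1, Tap2 and Tapbp) and Cd74. All 4 lay below both naive libraries for 3 of 40 (H2-Ob, H2-Q10 and H2-T24), against 16.6% of all genes.

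The class medians were positive against naive. For contact TAM over naive the median log2 fold change was 1.05 over the 19 class I genes, 0.97 over the 7 processing genes and 1.41 over the 11 class II genes, and 0.00399 over all genes. For non-contact TAM over naive the medians were 1.17, 0.79 and 0.66 in the same order, and 0.0586 over all genes, and without replicate 1 of non-contact TAM the class II median was -0.51. For contact TAM over non-contact TAM they were -0.11, 0.22 and 0.30, and -0.00198 over all genes. Fold changes come from the fit, which scales libraries by TMM (edgeR's trimmed mean of M-values), while CPM values use the total count.

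**Figure D1:**
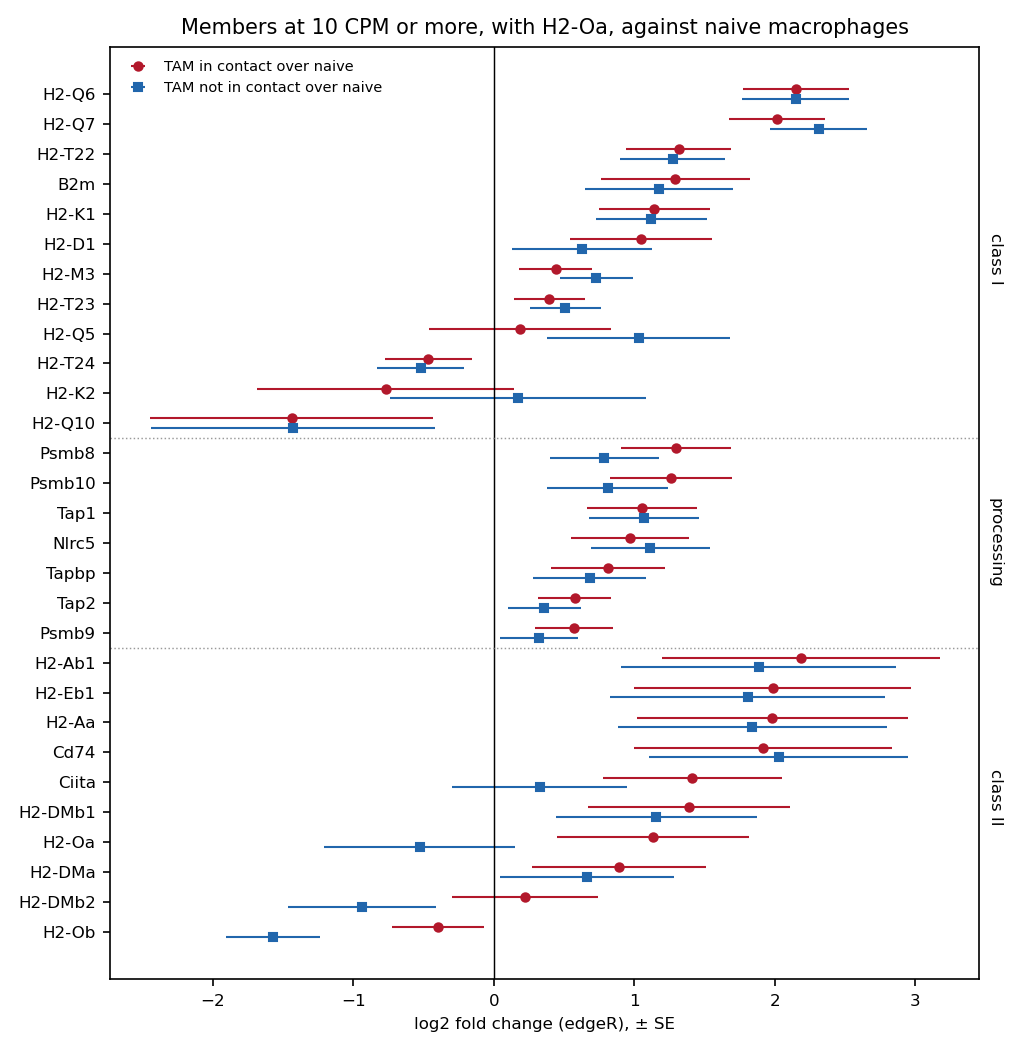
Log2 fold changes from edgeR with their standard errors for the 28 members that averaged at least 10 CPM over the macrophage libraries, with H2-Oa, in contact TAM over naive (red circles) and non-contact TAM over naive (blue squares), 2 libraries a group. Standard errors were derived from the fold change and the F statistic of its quasi-likelihood test. H2-Q6 and H2-Q7 lie near 2 with short bars, the class II chains lie at similar values with long bars, and H2-Ob, H2-Q10 and H2-T24 lie below 0 in both.

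The class II chains and Cd74 differed more between replicates of the same TAM group than between the TAM groups. The invariant chain gene Cd74 (chr18:60803848-60812652, plus strand, GRCm38) stood at 14316 and 4239 CPM in contact TAM, 15747 and 4042 CPM in non-contact TAM and 3348 and 2064 CPM in naive macrophages. H2-Ab1, the beta chain of the I-A molecule (chr17:34257689-34269419, plus strand), stood at 5025 and 1431 CPM in contact TAM, 4377 and 782 CPM in non-contact TAM and 981 and 581 CPM in naive macrophages. In both TAM groups replicate 1 was the high library, and replicate 2 was nearer to the naive libraries: for H2-Ab1, replicate 2 of non-contact TAM lay between them.

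The other classical chains had the same order. The alpha chain gene H2-Aa stood at 2426 and 679.9 CPM in contact TAM, 2339 and 430.0 CPM in non-contact TAM and 547 and 318 CPM in naive macrophages. H2-Eb1, the beta chain of I-E, stood at 2014 and 588 CPM in contact TAM, 1954 and 310.5 CPM in non-contact TAM and 452 and 272 CPM in naive macrophages. Replicate 1 exceeded replicate 2 by 3.57 and 5.44 times for H2-Aa and by 3.43 and 6.29 times for H2-Eb1, in contact TAM and in non-contact TAM, against 1.72 and 1.66 times between the naive libraries. H2-Ea-ps, the alpha chain partner of I-E, which is known to be silent in B6 mice, had 0 counts in both libraries of contact TAM, 0 and 3 counts in non-contact TAM and 3 and 0 counts in naive macrophages, where 3 counts is also the limit that a count of 0 allows.

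Replicate 1 lay more than 2-fold above replicate 2 in both TAM groups for 7 of the 11 class II genes tested (Cd74, Ciita, H2-Aa, H2-Ab1, H2-DMb1, H2-Eb1 and H2-Eb2), against 4.11% of all genes. It did so for 2 of 19 class I genes, 1 of 2 pseudogenes and 0 of 7 processing genes. The opposite order held for 1 of 40 members (H2-K2), against 3.97% of all genes. Class II genes with Cd74 took 2.45% and 0.727% of all counts in contact TAM, 2.50% and 0.575% in non-contact TAM and 0.566% and 0.349% in naive macrophages, with 95% Wilson intervals that cover counting error only and are as narrow as 2.444% to 2.453% in replicate 1 of contact TAM.

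As CPM per kilobase of exon, Cd74 stood at 8526 and 2525 in contact TAM, 9379 and 2407 in non-contact TAM and 1994 and 1229 in naive macrophages. H2-Ab1 on the same scale stood at 1957 and 557 in contact TAM, 1704 and 305 in non-contact TAM and 382 and 226 in naive macrophages, so the invariant chain exceeded the I-A beta chain in every library.

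The errors of the fitted differences were wide. For contact TAM over naive the log2 fold change was 2.19 ± 0.99 (SE, n = 2 each, adjusted p = 0.374 by edgeR) for H2-Ab1 and 1.92 ± 0.92 (adjusted p = 0.394) for Cd74. For non-contact TAM over naive it was 1.88 ± 0.98 (adjusted p = 0.424) for H2-Ab1 and 2.03 ± 0.92 (adjusted p = 0.369) for Cd74. Left without its replicate 1, non-contact TAM over naive had a log2 fold change of 0.07 for H2-Ab1 and 0.64 for Cd74. For contact TAM over non-contact TAM the log2 fold changes were 0.30 ± 0.95 for H2-Ab1 (adjusted p = 0.903) and -0.11 ± 0.89 for Cd74 (adjusted p = 0.964).

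**Figure D2:**
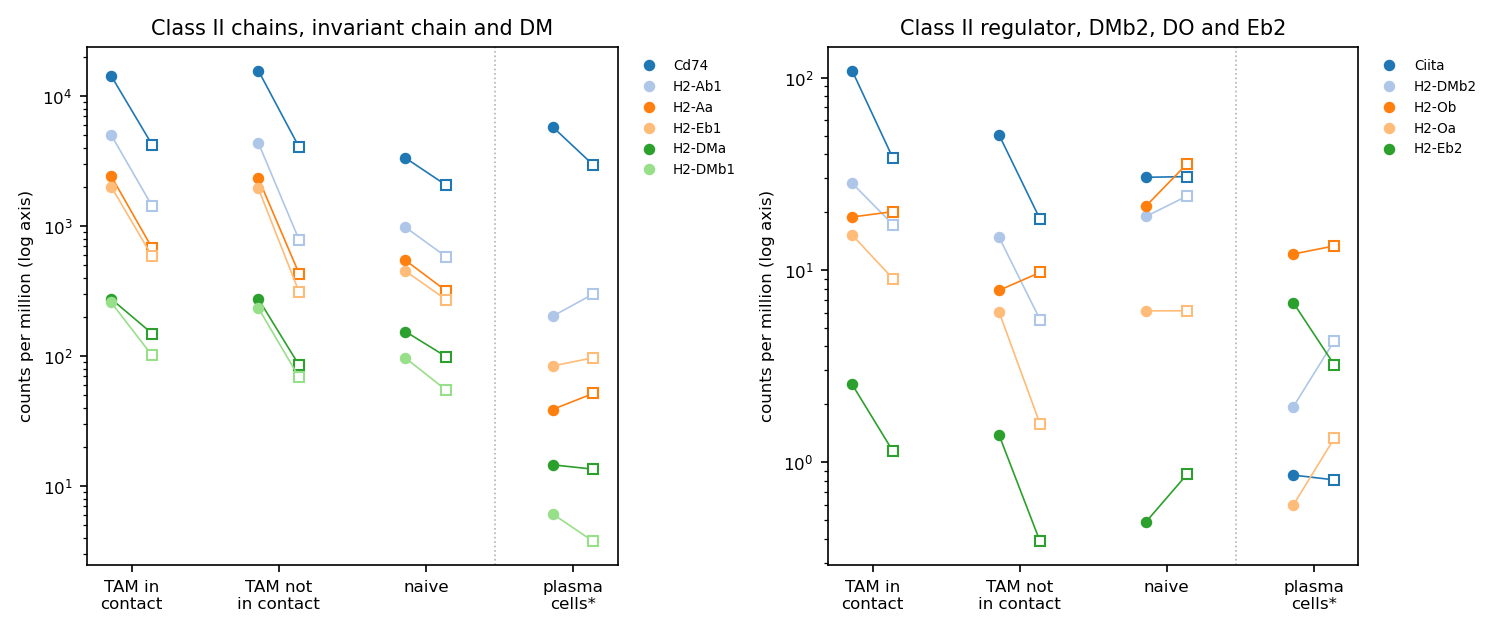
CPM of class II genes in each library, on a log axis, with replicate 1 as a filled circle, replicate 2 as an open square and a line joining the pair; the plasma cells (asterisk) come from a separate table. Cd74, H2-Ab1, H2-Aa and H2-Eb1 run parallel, high in replicate 1 of both TAM groups, while H2-Ob lies lower in non-contact TAM than in the other macrophages.

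**Figure D3:**
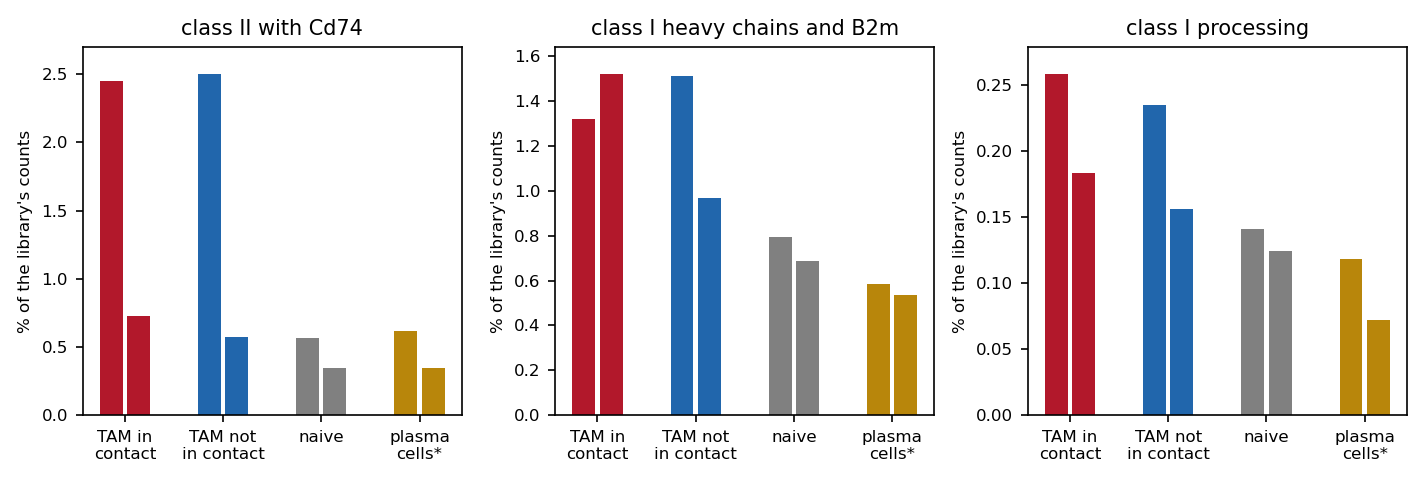
Share of each library's counts on class II genes with Cd74, on class I heavy chains with B2m, and on the 7 class I processing genes, replicate 1 left and replicate 2 right within a group; the plasma cells (asterisk) come from a separate table. The class II share is 2.45% and 2.50% in replicate 1 of the TAM groups and at most 0.727% in every other library.

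Class II genes share promoter letters, shown here because the X and Y boxes of class II promoters are known to be where the complex recruited by Ciita sits. In RefSeq's promoter windows on GRCm38.p6 (250 bases before to 50 after the start; 38 of the 55 members have an entry), the letters of a Y box, TGATTGG, preceded at 15 to 40 bases by GNAAC, a piece of the X box, occurred on either strand in 6 of 8 class II genes, 0 of 23 class I genes and 0.818% of 27025 genes. TGATTGG alone occurred in 7 of 8 class II genes, 15 of 23 class I genes and 9.00% of all genes. The patterns were picked after these promoters had been read, and a match is a description of letters, not a site. H2-Ab1, Cd74 and Ciita had no entry. The windows below run 5′ to 3′ from 110 to 21 bases before RefSeq's start, with the letters of both boxes in capitals. That start can differ from the start of the gene in the GENCODE annotation: the window of H2-DMb1 lies inside the GENCODE gene and that of H2-Oa runs across its start. The windows lie at chr17:34287844-34287933, minus strand, for H2-Aa; chr17:34305757-34305846 for H2-Eb1, chr17:34153081-34153170 for H2-DMb1, chr17:34092269-34092358 for H2-Oa and chr17:34238795-34238884 for H2-Ob, all plus strand.
H2-Aa: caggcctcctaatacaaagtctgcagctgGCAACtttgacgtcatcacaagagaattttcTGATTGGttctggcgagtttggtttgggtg
H2-Eb1: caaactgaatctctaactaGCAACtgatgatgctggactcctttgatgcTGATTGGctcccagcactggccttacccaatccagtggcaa
H2-DMb1: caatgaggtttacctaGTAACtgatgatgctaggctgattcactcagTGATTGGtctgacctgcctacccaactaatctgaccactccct
H2-Oa: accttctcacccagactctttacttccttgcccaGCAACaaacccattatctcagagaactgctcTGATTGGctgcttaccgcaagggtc
H2-Ob: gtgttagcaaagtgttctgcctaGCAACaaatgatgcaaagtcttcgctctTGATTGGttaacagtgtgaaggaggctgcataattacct

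H2-Ob encodes the beta chain of the DO molecule, which restrains DM, the molecule that exchanges peptides on class II. Letters of both boxes were matched in its window, as in those of H2-Aa and H2-Eb1. Its values followed another order across the libraries than theirs, and no link between letters and values was tested. H2-Ob stood at 18.8 and 20.1 CPM in contact TAM, 7.83 and 9.69 CPM in non-contact TAM and 21.6 and 35.7 CPM in naive macrophages. Contact TAM lay above non-contact TAM without overlap, and both groups lay below naive. The summed level of 8 eosinophil markers had the same order, at 873 and 1219 CPM in contact TAM, 192 and 618 CPM in non-contact TAM and 1689 and 2293 CPM in naive macrophages, with Ear6 at 0 in replicate 1 of non-contact TAM, though Ccr3 had 14.4 and 21.7 CPM in contact TAM against 169 and 488 CPM in non-contact TAM. The sum of 8 B cell markers was also lower in both TAM groups than in naive, at 135 and 146 CPM in contact TAM, 254 and 227 CPM in non-contact TAM and 496 and 598 CPM in naive macrophages. The part of these cells in the H2-Ob values was not tested. The log2 fold change was 1.17 ± 0.33 (SE, n = 2 each) for contact TAM over non-contact TAM (edgeR adjusted p = 0.203) and -1.57 ± 0.33 for non-contact TAM over naive (edgeR adjusted p = 0.219), and DESeq2 called both. For contact TAM over naive it was -0.40 ± 0.33 (edgeR adjusted p = 0.594), and 0.0108 without replicate 2 of naive.

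H2-Oa, the alpha chain of DO, stood at 15.2 and 9.00 CPM in contact TAM, 6.02 and 1.58 CPM in non-contact TAM and 6.12 and 6.13 CPM in naive macrophages. Its libraries also did not overlap between the TAM groups (log2 fold change 1.66 ± 0.69, edgeR adjusted p = 0.299). H2-DMb2, a beta chain of DM, stood at 28.3 and 17.2 CPM in contact TAM, 14.7 and 5.51 CPM in non-contact TAM and 19.0 and 24.2 CPM in naive macrophages, again with no overlap between the TAM groups (log2 fold change 1.16 ± 0.53, edgeR adjusted p = 0.328). Without replicate 1 of non-contact TAM edgeR called both, with 8.86% of all genes called, and with log2 fold changes of 2.99 for H2-Oa and 2.10 for H2-DMb2. Contact TAM lay above non-contact TAM without overlap for 4 of 40 members (H2-Oa, H2-Ob, H2-DMb2 and Tap2), against 24.4% of all genes, and below it for 3 of 40 (H2-M2, H2-M3 and H2-M10.1), against 22.3%, so both shares were under the background.

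Both main chains of DM were higher in replicate 1 than in replicate 2 of each TAM group. H2-DMa stood at 276 and 149 CPM in contact TAM, 276 and 85.0 CPM in non-contact TAM and 155 and 99.0 CPM in naive macrophages. H2-DMb1 stood at 259 and 101 CPM in contact TAM, 235 and 68.6 CPM in non-contact TAM and 96.8 and 54.7 CPM in naive macrophages. Replicate 2 of non-contact TAM lay below both naive libraries for H2-DMa and between them for H2-DMb1. Per kilobase of exon, the ratio of H2-Oa to H2-DMa was 0.135 and 0.148 in contact TAM, 0.0534 and 0.0455 in non-contact TAM and 0.0970 and 0.152 in naive macrophages. The DO to DM ratio of the alpha chains was thus higher in both libraries of contact TAM than in both of non-contact TAM, with the naive libraries spanning part of the upper range. The ratio of the beta chains, H2-Ob to H2-DMb1, was 0.0227 and 0.0620 in contact TAM, 0.0104 and 0.0441 in non-contact TAM and 0.0696 and 0.204 in naive macrophages, so there the TAM groups overlapped and both lay below naive. H2-DMb1 and H2-DMb2 share 27.2% and 30.9% of their 50-base words with other genes, mostly each other, and 22.8% of the exon bases of H2-Oa overlap BC051537, so reads could be split between neighbours there.

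Ciita (chr16:10480059-10528418, plus strand), the transactivator of class II genes, stood at 109 and 38.1 CPM in contact TAM, 50.2 and 18.4 CPM in non-contact TAM and 30.3 and 30.6 CPM in naive macrophages. It was higher in replicate 1 than in replicate 2 of both TAM groups, by 2.86 and 2.73 times, as the classical chains were, but the naive libraries had equal Ciita and unequal H2-Ab1. Its log2 fold change was 1.09 ± 0.63 for contact TAM over non-contact TAM (edgeR adjusted p = 0.426). The 7 partners of Ciita on the list of class II regulators (Rfx5, Rfxap, Rfxank, Nfya, Nfyb, Nfyc and Creb1) did not show the replicate order at 2-fold. Rfx5, the DNA-binding subunit of the RFX complex, stood at 20.7 and 16.3 CPM in contact TAM, 24.5 and 13.4 CPM in non-contact TAM and 23.1 and 20.1 CPM in naive macrophages. DESeq2 called 1 of the 8 regulators higher in contact TAM over non-contact TAM, against 3.28% of all genes. This was Nfyb, a subunit of NF-Y, with a log2 fold change of 0.85 ± 0.23 there (edgeR adjusted p = 0.200).

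Markers of some other cells were ordered by replicate number in TAM as class II was. Of 8 T cell markers, 7 lay more than 2-fold higher in replicate 1 than in replicate 2 of both TAM groups, against 4.11% of all genes. The list summed to 114 and 24.8 CPM in contact TAM, 364 and 139 CPM in non-contact TAM and 221 and 121 CPM in naive macrophages, and no marker was at 0. Cd4 made up much of that sum, at 37.2 and 4.98 CPM in contact TAM, 279.97 and 114 CPM in non-contact TAM and 205 and 96.1 CPM in naive macrophages, while Trac, the constant part of the T cell receptor alpha chain, stood at 20.3 and 3.96 CPM in contact TAM, 23.8 and 2.42 CPM in non-contact TAM and 1.90 and 3.18 CPM in naive macrophages.

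Of 8 dendritic cell markers 3 had the same order, and the list summed to 375 and 191 CPM in contact TAM, 402 and 118 CPM in non-contact TAM and 87.8 and 72.9 CPM in naive macrophages. Itgax, which encodes CD11c, gave most of it, with 243 and 112 CPM in contact TAM, 351 and 58.3 CPM in non-contact TAM and 38.7 and 17.1 CPM in naive macrophages, and no marker was at 0. Flt3, another of these markers, differed, at 45.5 and 26.7 CPM in contact TAM and 9.21 and 16.1 CPM in non-contact TAM. Naive macrophages had 19.3 and 24.6 CPM of Flt3. Of 15 genes known to be induced by interferon gamma 4 had the order. All 15 summed to 2124 and 781 CPM in contact TAM, 1972 and 1969 CPM in non-contact TAM and 755 and 579 CPM in naive macrophages. The like sums in non-contact TAM held genes of both orders. Cd274 stood at 217 and 774 CPM there. Cxcl10, Gbp5, Gbp8 and Ido1 (0 and 1 counts) were also higher in its replicate 2, and the rest of the list in its replicate 1.

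B cells, which carry class II, had 0 of 8 markers in that order. In their list, whose sums stand beside H2-Ob, 7 of the 8 lay below naive in all 4 TAM libraries, against 16.6% of all genes. Cr2 was at 0 in replicate 1 of non-contact TAM. The 8 monocyte markers summed to 3487 and 6303 CPM in contact TAM, 1579.7 and 3082 CPM in non-contact TAM and 1288 and 1602 CPM in naive macrophages, and none was at 0. Nr4a1 made up much of the sum in replicate 2 of TAM, at 417 and 2473 CPM in contact TAM and 206 and 2071 CPM in non-contact TAM, while Ccr2 stood at 925 and 618 CPM in contact TAM and 191 and 52.4 CPM in non-contact TAM, so the 8 markers had no common replicate order. The part of T cells, dendritic cells, B cells, monocytes and interferon gamma in the class II values was not tested.

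The classical class I genes lay above the naive libraries in TAM without the replicate split of class II. H2-K1, a classical heavy chain (chr17:33996017-34000347, minus strand), stood at 2519.9 and 2599.7 CPM in contact TAM, 2877 and 2221 CPM in non-contact TAM and 1392 and 1196 CPM in naive macrophages. H2-D1, the other classical heavy chain (chr17:35262730-35267499, plus strand), stood at 5808 and 7518 CPM in contact TAM, 6191 and 3872 CPM in non-contact TAM and 3783 and 3431 CPM in naive macrophages. B2m (chr2:122147686-122153083, plus strand) stood at 4074 and 4371 CPM in contact TAM, 5281 and 2559.8 CPM in non-contact TAM and 2180.2 and 1672 CPM in naive macrophages. For all 3 genes the TAM libraries lay above the naive ones, and replicate 2 of non-contact TAM came closest to naive.

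The log2 fold change of H2-K1 was 1.14 ± 0.40 (SE, n = 2 each, edgeR adjusted p = 0.297) for contact TAM over naive and 1.12 ± 0.40 (edgeR adjusted p = 0.280) for non-contact TAM over naive, and DESeq2 called both. For H2-D1 it was 1.05 ± 0.50 (edgeR adjusted p = 0.394) and 0.63 ± 0.50 (0.617), and for B2m 1.29 ± 0.53 (0.342) and 1.17 ± 0.53 (0.363), in the same order of comparisons, with no DESeq2 call. The TAM groups did not differ beyond their spread for H2-K1 (0.02 ± 0.39, adjusted p = 0.986), H2-D1 (0.42 ± 0.50, adjusted p = 0.710) or B2m (0.12 ± 0.52, adjusted p = 0.935). Class I heavy chains and B2m together took 1.32% and 1.52% of counts in contact TAM, 1.51% and 0.969% in non-contact TAM and 0.793% and 0.689% in naive macrophages.

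The nonclassical heavy chains H2-Q6 and H2-Q7, of the Qa-2 group, lay above both naive libraries in all 4 TAM libraries. H2-Q6 (chr17:35424850-35430055, plus strand) stood at 139.8 and 142 CPM in contact TAM, 91.7 and 194 CPM in non-contact TAM and 33.9 and 36.7 CPM in naive macrophages. H2-Q7 (chr17:35439155-35443773, plus strand), which encodes a membrane-anchored form of Qa-2, stood at 68.5 and 58.8 CPM in contact TAM, 55.2 and 104 CPM in non-contact TAM and 15.9 and 19.2 CPM in naive macrophages. For both genes the lowest TAM library was above the highest naive library by more than the distance between the naive libraries.

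In contact TAM over naive the log2 fold change was 2.15 ± 0.38 (SE, n = 2 each, edgeR adjusted p = 0.110) for H2-Q6 and 2.01 ± 0.34 (edgeR adjusted p = 0.104) for H2-Q7. For non-contact TAM over naive it was 2.15 ± 0.38 and 2.31 ± 0.35 (edgeR adjusted p = 0.219 for both). DESeq2 called both genes in both comparisons. With any single library left out, the log2 fold changes of both genes over naive stayed between 1.55 and 2.65 in both comparisons. The 50-base words of H2-Q6 and H2-Q7 are shared with other genes for 35.0% and 28.5%, so reads could be split within the Q group.

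H2-Q10, a Q gene known in mouse as a secreted heavy chain of the liver, lay the other way, at 14.2 and 15.8 CPM in contact TAM, 2.10 and 29.1 CPM in non-contact TAM and 36.8 and 54.1 CPM in naive macrophages. All 4 TAM libraries lay below both naive libraries, and edgeR called it lower in non-contact TAM than in naive once replicate 2 of non-contact TAM was left out, with 1.66% of all genes called. H2-Q5, an annotated polymorphic pseudogene, stood at 11.2 and 11.7 CPM in contact TAM, 7.93 and 34.3 CPM in non-contact TAM and 9.11 and 13.4 CPM in naive macrophages, with replicate 2 of non-contact TAM the high library.

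Promoter windows of some class I genes are shown with letters of 2 known control boxes, enhancer A and the interferon response element. GGGGATT, letters of enhancer A, occurred on either strand in 9 of 23 class I genes with an entry and in 3.57% of all 27025 genes. GAANNGAAA, the core letters of the interferon response element, occurred on either strand in 8 of 23 class I genes and 8.68% of all genes. The windows below are much alike in sequence, so matches in related genes are not independent and both counts only describe letters. The windows run 5′ to 3′ from 190 to 91 bases before RefSeq's start, and for H2-D1 both that start and the window lie inside the GENCODE gene given above. H2-K1 has 2 entries, and the window is that of the entry whose start lies inside the gene. Matches are in capitals, the second pattern lying on the opposite strand (chr17:34000424-34000523, minus strand, for H2-K1; chr17:35262904-35263003 for H2-D1, chr17:35424660-35424759 for H2-Q6, chr17:35438965-35439064 for H2-Q7 and chr17:35469899-35469998 for H2-Q10, all plus strand).
H2-K1: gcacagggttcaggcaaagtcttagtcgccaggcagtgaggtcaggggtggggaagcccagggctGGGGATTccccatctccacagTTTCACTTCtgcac
H2-D1: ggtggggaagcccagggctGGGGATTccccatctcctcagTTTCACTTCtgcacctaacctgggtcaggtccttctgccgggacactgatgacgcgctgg
H2-Q6: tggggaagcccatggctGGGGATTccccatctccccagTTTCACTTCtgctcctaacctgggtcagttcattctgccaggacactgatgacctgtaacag
H2-Q7: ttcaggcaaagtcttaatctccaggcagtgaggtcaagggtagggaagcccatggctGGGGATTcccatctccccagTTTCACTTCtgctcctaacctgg
H2-Q10: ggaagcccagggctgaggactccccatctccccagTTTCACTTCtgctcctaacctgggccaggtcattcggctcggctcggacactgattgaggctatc

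GGGGATT stood in the windows of H2-K1, H2-D1, H2-Q6 and H2-Q7 and not in that of H2-Q10, and the second pattern stood in all 5. Among the other class I genes above naive in every TAM library, H2-Q4 and H2-T22 had GGGGATT in their promoter entry. B2m, H2-M3, H2-M5, H2-Q2 and H2-T23 did not, so the letters did not follow the order of the values. A match or its lack says nothing here about binding.

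Among the T and M group genes, which present restricted sets of peptides or none, H2-T22 stood at 75.8 and 37.2 CPM in contact TAM, 62.6 and 47.2 CPM in non-contact TAM and 25.9 and 24.3 CPM in naive macrophages. H2-T22 encodes a ligand of some gamma delta T cells, and it had a log2 fold change of 1.32 ± 0.37 for contact TAM over naive (edgeR adjusted p = 0.230; called by DESeq2) and 1.27 ± 0.37 for non-contact TAM over naive (edgeR adjusted p = 0.243). Of its 50-base words 58.5% are shared with other genes, mostly H2-T10, so the counts of this pair are uncertain. H2-T23, which encodes Qa-1, a ligand of the NKG2A receptor, stood at 317 and 282 CPM in contact TAM, 311 and 345 CPM in non-contact TAM and 258 and 249 CPM in naive macrophages. H2-M3, which presents formylated peptides, stood at 94.0 and 95.2 CPM in contact TAM, 130.1 and 103 CPM in non-contact TAM and 87.1 and 68.3 CPM in naive macrophages. Both lay above naive in all 4 TAM libraries by small margins. H2-T24 lay below naive in all 4, at 67.1 and 36.7 CPM in contact TAM, 48.4 and 52.3 CPM in non-contact TAM and 75.6 and 83.5 CPM in naive macrophages.

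H2-K2, an annotated transcribed pseudogene next to H2-K1, stood at 10.9 and 23.6 CPM in contact TAM, 7.04 and 61.8 CPM in non-contact TAM and 29.5 and 36.7 CPM in naive macrophages. It was the member with replicate 2 more than 2-fold above replicate 1 in both TAM groups.

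**Figure D4:**
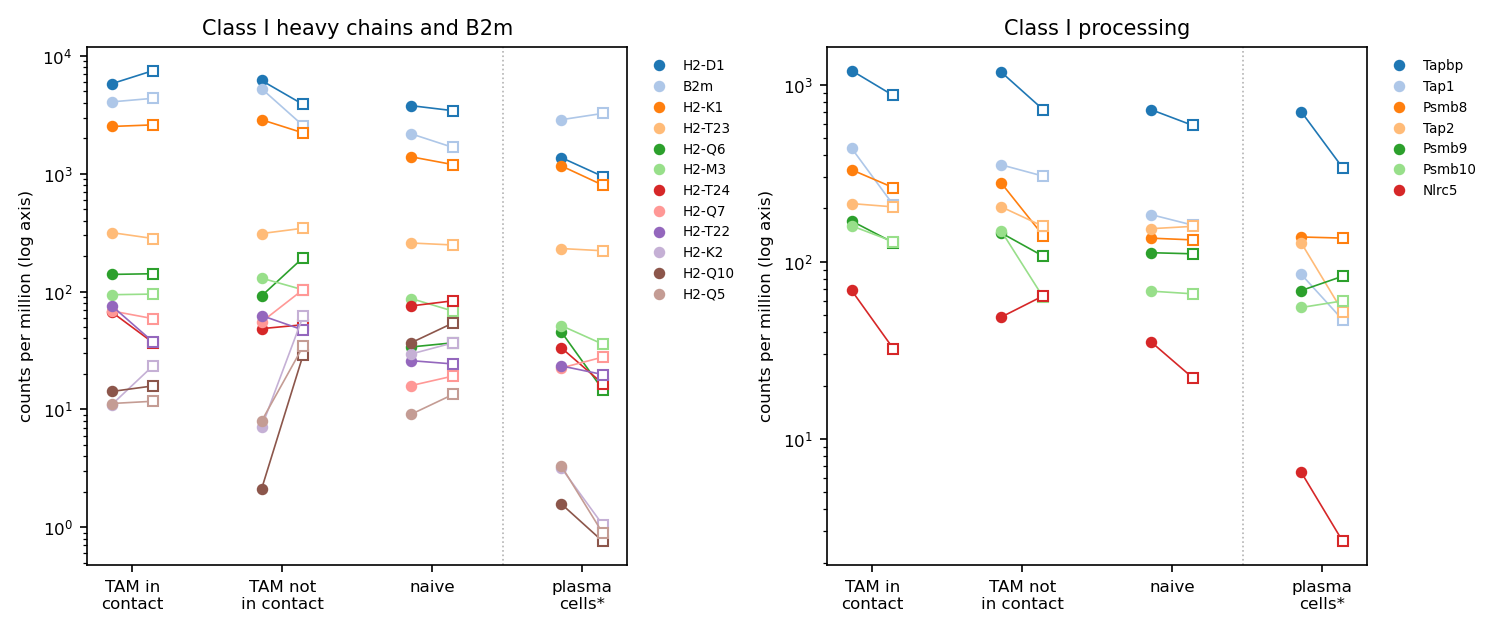
CPM of class I genes (left) and class I processing genes (right) in each library, on a log axis, with replicate 1 as a filled circle, replicate 2 as an open square and a line joining the pair; the plasma cells (asterisk) come from a separate table. H2-K1, H2-D1 and B2m lie above naive in all 4 TAM libraries, and H2-Q10 and H2-K2 have their widest replicate gap in non-contact TAM.

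Low nonclassical genes held 2 values that came from a single library. H2-M10.1, of the M10 family known from the vomeronasal organ in mouse, had 1414 counts (45.5 CPM) in replicate 2 of non-contact TAM, 1 count in its replicate 1, 0 and 0 counts in contact TAM and 20 and 11 counts in naive macrophages. It also had 1276 counts (15.6 CPM) in replicate 1 of the plasma cells and 22 in replicate 2. Replicate 2 of non-contact TAM is where immunoglobulin took 9.48% of counts, with 4733 CPM of summed plasma cell markers, and its H2-M10.1 level was above that of either plasma cell library, as far as CPM can be set across the 2 tables. DESeq2 called H2-M10.1 lower in contact TAM than in non-contact TAM, and edgeR called it in that comparison without the filter on low counts and without replicate 1 of non-contact TAM, but not with the filter and all libraries. The 5 other M10 genes and H2-M10.5-ps1 had at most 4 counts in any library.

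H2-M2 had 1776 counts (42.9 CPM) in replicate 1 of non-contact TAM and 132 (4.25 CPM) in its replicate 2, 149 and 59 counts (3.35 and 1.40 CPM) in contact TAM and 93 and 11 counts (1.98 and 0.381 CPM) in naive macrophages. Its log2 fold change was 4.46 ± 1.35 for non-contact TAM over naive (edgeR adjusted p = 0.245) and -3.33 ± 1.28 for contact TAM over non-contact TAM (edgeR adjusted p = 0.272), and DESeq2 called both. Without replicate 1 of non-contact TAM these were 1.87 and -0.79. H2-M6-ps, a pseudogene of the M region, and H2-M5 were also higher in replicate 1 of both TAM groups, at levels of 3.68 CPM or less. Of the 12 tested members that averaged under 10 CPM, H2-T10 ranged from 2.94 to 11.6 CPM and H2-Q4 from 0.969 to 3.90 CPM over the macrophage libraries, and both were highest in replicate 2 of non-contact TAM.

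The 7 genes of class I processing, Nlrc5 included, had positive log2 fold changes in both comparisons with naive. Psmb8, a catalytic subunit of the immunoproteasome, stood at 330.4 and 262 CPM in contact TAM, 277 and 141 CPM in non-contact TAM and 136 and 133 CPM in naive macrophages. Psmb10, another catalytic subunit, stood at 159 and 129.8 CPM in contact TAM, 148 and 63.2 CPM in non-contact TAM and 68.2 and 65.9 CPM in naive macrophages. Psmb9, the remaining one, stood at 169.7 and 128 CPM in contact TAM, 145 and 108 CPM in non-contact TAM and 112 and 111 CPM in naive macrophages. Replicate 2 of non-contact TAM was close to the naive libraries for each subunit, above them for Psmb8 and below them for Psmb9 and Psmb10, and the 3 other TAM libraries were above naive.

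The log2 fold change for contact TAM over naive was 1.29 ± 0.39 (SE, n = 2 each, edgeR adjusted p = 0.251) for Psmb8, which DESeq2 called, and 1.26 ± 0.43 (edgeR adjusted p = 0.296) for Psmb10. For non-contact TAM over naive it was 0.79 ± 0.39 (edgeR adjusted p = 0.401) and 0.81 ± 0.43 (edgeR adjusted p = 0.433). Without replicate 1 of non-contact TAM the values against naive were 0.14 for Psmb8 and -0.01 for Psmb10. In that fit edgeR called Psmb10 in contact TAM over naive, with 3.13% of all genes called, and in contact TAM over non-contact TAM.

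The immunoproteasome subunits replace constitutive ones, so each was set against the subunit it replaces, per kilobase of exon. Psmb8 over Psmb5 was 2.99 and 2.44 in contact TAM, 2.91 and 1.76 in non-contact TAM and 1.81 and 1.49 in naive macrophages. Psmb10 over Psmb7 was 8.88 and 7.84 in contact TAM, 9.58 and 4.19 in non-contact TAM and 4.51 and 3.73 in naive macrophages. Both ratios were higher in contact TAM than in naive libraries. Psmb9 over Psmb6 behaved differently, at 0.754 and 0.639 in contact TAM, 0.589 and 0.515 in non-contact TAM and 0.723 and 0.732 in naive macrophages, where the naive libraries lay within the range of contact TAM and above non-contact TAM.

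**Figure D5:**
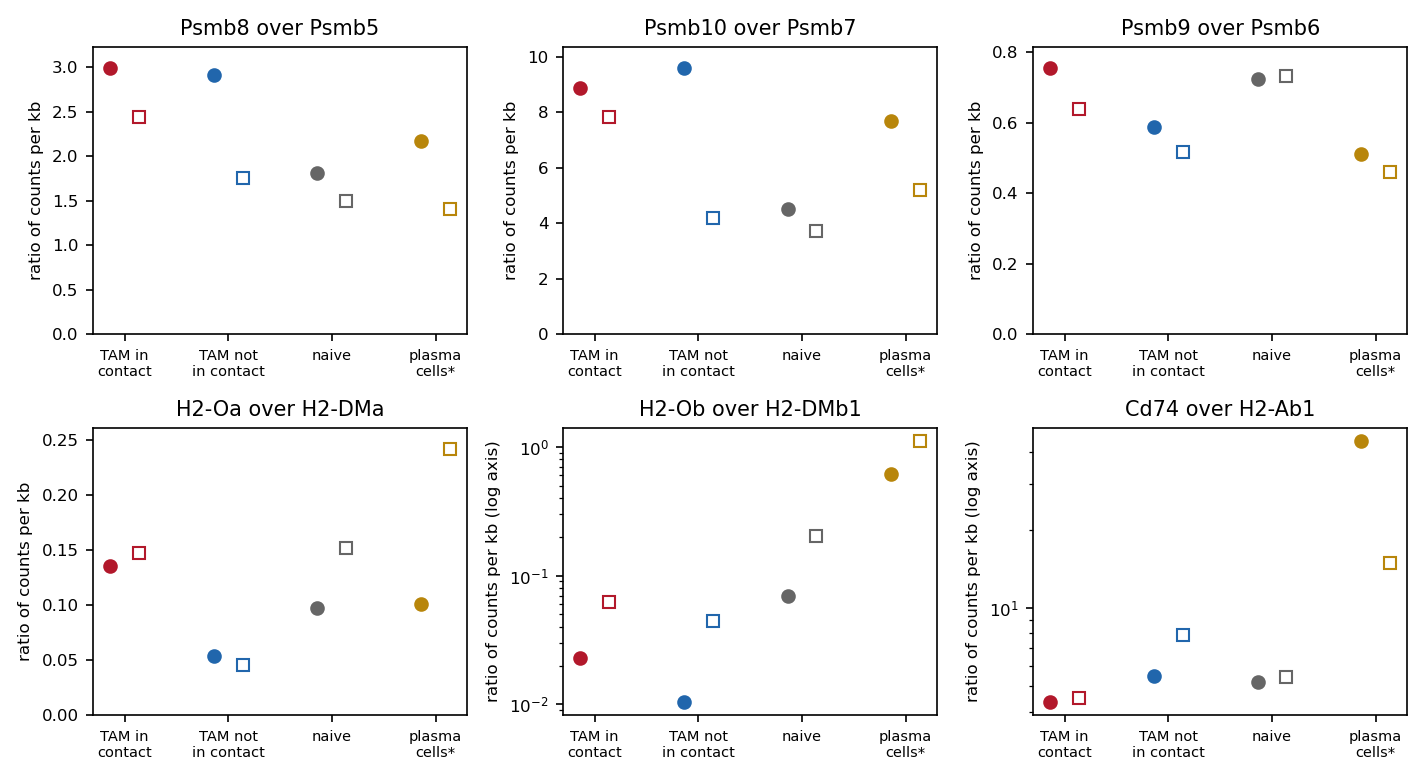
Ratios of gene levels per kilobase of exon in each library, replicate 1 as a filled circle and replicate 2 as an open square; the plasma cells (asterisk) come from a separate table, and the axes of H2-Ob over H2-DMb1 and of Cd74 over H2-Ab1 are log axes. Psmb8 over Psmb5 and Psmb10 over Psmb7 lie above naive in both libraries of contact TAM and in replicate 1 of non-contact TAM, and H2-Oa over H2-DMa is 0.0534 and 0.0455 in non-contact TAM, below every other library.

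Tap1, a subunit of the peptide transporter, stood at 437 and 209.6 CPM in contact TAM, 352 and 304 CPM in non-contact TAM and 184 and 161 CPM in naive macrophages. Its partner Tap2 stood at 213 and 204 CPM in contact TAM, 204 and 158 CPM in non-contact TAM and 154 and 158 CPM in naive macrophages. Tapbp stood at 1200.3 and 868 CPM in contact TAM, 1173 and 723 CPM in non-contact TAM and 721 and 588 CPM in naive macrophages. All 3 lay above naive in each TAM library, but for Tap2 and Tapbp replicate 2 of non-contact TAM all but touched the higher naive library. The log2 fold change of Tap1 was 1.05 ± 0.39 (edgeR adjusted p = 0.317) for contact TAM over naive and 1.07 ± 0.39 (edgeR adjusted p = 0.291) for non-contact TAM over naive. Of the exon bases of Tapbp 29.0% and of Tap2 18.5% overlap other annotated genes, and the sequencing kit does not mark the strand.

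Nlrc5 (chr8:94434356-94527272, plus strand), the transactivator of class I genes, stood at 68.9 and 32.3 CPM in contact TAM, 48.8 and 64.1 CPM in non-contact TAM and 35.2 and 22.1 CPM in naive macrophages. Non-contact TAM lay above naive without overlap, and replicate 2 of contact TAM lay between the naive libraries. H2-K1 and H2-D1 were both above naive in that library, so the order of Nlrc5 across the libraries was not that of the classical heavy chains.

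Related genes outside the 55 were counted in lists, none of which had a member called by edgeR in any comparison. Of 15 interferon gamma inducible genes DESeq2 called 5 higher (3.06% of all genes) and 1 lower (Gbp8, 4.86%) in contact TAM over naive. It called 7 higher (4.42%) in non-contact TAM over naive. Cd274, which encodes PD-L1, had a log2 fold change of 3.02 ± 0.63 for contact TAM over naive (edgeR adjusted p = 0.149) and 4.15 ± 0.66 for non-contact TAM over naive (edgeR adjusted p = 0.219). The list medians were 1.22 and 1.30 in the same order, beside 0.00399 and 0.0586 for all genes. Of 13 genes of interferon gamma signalling DESeq2 called 3 higher in contact TAM over naive (3.06% of all genes), among them Socs1, a feedback inhibitor (log2 fold change 1.89 ± 0.56, edgeR adjusted p = 0.240). In non-contact TAM over naive it called 0 (4.42% of all genes higher, 3.74% lower), and edgeR had 1 at an unadjusted p under 0.05 (15.2%).

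The 7 costimulation genes, whose products act beside antigen, had the median furthest from 0 between the TAM groups among the 8 pathway lists. Their median log2 fold change was -2.07 for contact TAM over non-contact TAM, beside -0.00198 for all genes, and DESeq2 called 3 lower (7.15% of all genes). Cd86, a ligand of CD28, had a log2 fold change of -2.07 ± 0.52 (edgeR adjusted p = 0.186), and Cd83, which stabilises class II at the surface, -2.33 ± 0.60 (edgeR adjusted p = 0.190). Cd86 stood at 107 and 46.5 CPM in contact TAM, 393 and 252 CPM in non-contact TAM and 348 and 199 CPM in naive macrophages, so contact TAM was the low group. Cd83 stood at 315 and 280.5 CPM in contact TAM, 698 and 2355 CPM in non-contact TAM and 218 and 164 CPM in naive macrophages.

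Of 10 tested genes of the class II compartment DESeq2 called 2 lower in contact TAM over non-contact TAM, against 7.15% of all genes. These were the lysosomal proteases Ctsd (log2 fold change -2.69 ± 0.58, edgeR adjusted p = 0.166) and Ctsl (-1.93 ± 0.36, edgeR adjusted p = 0.146). Ctss, the protease known to trim the invariant chain, had a log2 fold change of 1.62 ± 0.67 (edgeR adjusted p = 0.347) for contact TAM over naive and 1.64 ± 0.67 (edgeR adjusted p = 0.329) for non-contact TAM over naive. Among 9 tested MHC-like genes outside the complex, Cd1d1, which presents lipids, had a log2 fold change of -2.30 ± 0.42 (edgeR adjusted p = 0.117) for contact TAM over naive, and for Mr1, which presents vitamin B metabolites, it was -1.65 ± 0.35 (edgeR adjusted p = 0.164) for contact TAM over non-contact TAM, and DESeq2 called both. Of 11 genes of peptide loading and trimming DESeq2 called 1 lower in contact TAM over non-contact TAM (Hspa5), against 7.15% of all genes. It called 1 higher in contact TAM over naive (Tapbpl, against 3.06%) and 2 higher in non-contact TAM over naive (Hspa5 and Tapbpl, against 4.42%). Of the 14 constitutive proteasome subunits it called 1 (Psma7, higher in contact TAM over naive, against 3.06% of all genes).

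The plasma cell libraries, which were counted in a separate table and entered no test, carried class I RNA and Cd74 with little other class II RNA. H2-D1 stood at 1372 and 948 CPM, H2-K1 at 1167 and 799.7 CPM and B2m at 2876 and 3255 CPM. Cd74 stood at 5817 and 2949.8 CPM, within the range of the macrophage libraries, while H2-Ab1 stood at 203 and 301 CPM, H2-Aa at 38.9 and 51.8 CPM and H2-Eb1 at 84.0 and 97.4 CPM, all below every macrophage library. Ciita had 70 and 31 counts there (0.856 and 0.808 CPM), beside 475781 and 113108 counts of Cd74.

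Per kilobase of exon, Cd74 over H2-Ab1 was 43.9 in replicate 1 of the plasma cells and lower in replicate 2, though still above every macrophage library. It was 4.36 and 4.53 in contact TAM, 5.50 and 7.90 in non-contact TAM and 5.22 and 5.44 in naive macrophages. Plasma cell markers summed to 60746 and 81997 CPM in the plasma cell libraries. In the macrophages, the highest Cd74 over H2-Ab1 ratio was that of replicate 2 of non-contact TAM, the library with 4733 CPM of plasma cell markers, against 143 to 532 CPM in the other 5 macrophage libraries. What plasma cell RNA contributed to Cd74 in that library was not tested. H2-Ob had 12.1 and 13.3 CPM and H2-Eb2 6.74 and 3.21 CPM in plasma cells. H2-Eb2 was at most 2.54 CPM in the macrophage libraries, so it was a class II gene with a higher level in the plasma cell libraries, and H2-DMa and H2-DMb1 were at 14.6 CPM or less there.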

How the data were processed

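Per the labels' protocols, cDNA of 8 libraries was made with SMART-Seq v4, which covers whole transcripts and keeps no strand. The authors deposited raw counts by gene: a macrophage table (6 libraries, gene identifiers) and a plasma cell table (2 libraries, symbols). The submitters' processing notes name STAR, featureCounts and the mouse builds mm10 and GRCm38. The sources used here do not give the annotation release or how strand and reads with several positions were handled. The last of these can move counts between near-identical MHC genes. No column was left out (0 without a sample). Of 47643 identifiers 47224 matched GENCODE M21, and unmatched ones held at most 0.117% of counts.

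Counts were tested with edgeR 4.0.16 in R 4.3.3 (quasi-likelihood, TMM, filterByExpr with a minimum count of 10 and total of 15, a group term over 6 libraries, 3 residual degrees of freedom). P-values were Benjamini-Hochberg adjusted over all 15522 genes, with a threshold of 0.05, and a shared spread over the 3 groups. The standard error given with an edgeR log2 fold change is its absolute value divided by the square root of the test's F statistic. The fit was tested on simulated data. The plasma cell table entered no test. The limit behind a 0 was set at 3 counts (0.0640 to 0.104 CPM over the macrophage libraries). Alternatives were DESeq2 1.42.0, RLE size factors, no filter, bias-adjusted quasi-dispersions, a replicate block, and leaving out each library. Shared sequence was counted as 50-base words of the transcripts.

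Any member could be named; values per library are given for members averaging at least 10 CPM and for Ciita, Nlrc5, H2-Oa, H2-Ob and H2-Ea-ps, and of each other list up to 4 genes with the smallest p. Rfx5, Csf1r, Cd4, Trac, Itgax, Flt3, Ctss, H2-M2 and H2-M10.1 were given values after these had been seen. Members and lists were chosen with earlier results of these data known.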

Additional observations from a re-analysis of the deposited data

Results flagged for a closer look

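In the plasma cell libraries, which entered no comparison, 2 nonclassical class I genes had a level in replicate 1 at least 10 times that of the highest naive macrophage library. H2-M10.1 had 15.6 CPM in replicate 1 and 0.574 CPM in replicate 2 of the plasma cells, against 0.427 and 0.381 CPM in naive macrophages. H2-Q2 had 9.88 CPM in replicate 1 and 1.64 CPM in replicate 2 of the plasma cells, against 0.491 and 0.450 CPM in naive macrophages. The tables were counted separately, and the difference was not tested.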

How the results depend on the processing

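Over all genes, edgeR's main counts of calls were 0, 34 and 0 for contact TAM over non-contact TAM, contact TAM over naive and non-contact TAM over naive. In that order DESeq2 gave 1619, 1229 and 1267, and no filter on low counts 1871, 1437 and 1548. Bias-adjusted quasi-dispersions gave 22 in the first and 56 in the second comparison, and RLE size factors 22 in the second. The fit with the replicate block gave 28 in the first and 57 in the second comparison and changed no other call; the correlation of same-numbered deviations was 0.152 between the TAM groups and 0.0393 and 0.0888 with naive, and by sex-linked RNA the TAM libraries with number 2 differ in animal, so the numbers were not taken as pairs. Leaving out 1 library gave 0 to 1510, 0 to 534 and 0 to 477. Of the members, edgeR called 0 in each; DESeq2 called 3, 5 and 5, no filter 2, 11 and 10, and leaving out 1 library 0 to 5, 0 to 4 and 0 to 3, with calls when a library of non-contact TAM was left out. A lone library was then assumed to vary like the other groups. The class II median ranged from -0.42 to 2.05, 0.75 to 1.95 and -0.51 to 1.28 with 1 library left out. The log2 fold change of H2-Ob in contact TAM over naive was 0.0108 without naive replicate 2 (range -0.70 to 0.0108), and that of Psmb10 in non-contact TAM over naive was -0.0118 without replicate 1 of non-contact TAM (range -0.0118 to 1.32). The cause was not tested. Of the other alternative values 383 stayed the same, 37 newly passed the threshold and 7 moved. For a gene, the same meant that direction and side of the threshold were kept. For a class median it meant a shift smaller than the pooled SD between replicates, whatever the direction. Depth was at least 28887725 counts a library, so for the class II genes counting error was small beside the gap between replicates.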
